A study of Homo sapiens with 8 samples.

Results

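RBFOX2 eCLIP peaks in short protein-coding genes were described across 4 replicates of HEK293T cells, a human embryonic kidney line that carries the SV40 large T antigen. A peak was a member when it lay on chromosomes 1 to 22 and its midpoint fell in exactly 1 RefSeq gene span, that gene was protein-coding and its span was at most 10 kb long. Genes of ribosomal proteins, mitochondrial ribosomal proteins and histones, recognised by the start of their symbols, were left out. By this rule 37270 of 1118316 called peaks were members, which is 3.33% ± 0.0370 (SD, n = 4) of a list. The 4 lists held 8985, 9432, 9451 and 9402 of them in replicates 1 to 4. They fell in 1984 of the 5144 short genes of the gene table, and 1511 of these genes had a called peak in every list.

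The series has 8 libraries, 4 from immunoprecipitation (IP) of RBFOX2 and 4 from the inputs of the same number. The labels name no genetic change and no treatment other than ultraviolet light, and the cells were irradiated at 254 nm with 400 mJ/cm2, at 10000000 cells a sample. From each sample 2% was kept as its input. The labels do not say that the replicates were separate cultures, so all p-values measure only the spread between these libraries, which may be technical. Each peak carries the authors' −log10 p and log2 fold of IP over its input, and both units were read from the values.

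RBFOX2 belongs to the RBFOX family of splicing regulators, whose RNA recognition motif binds the RNA word UGCAUG or its core GCAUG. It is best known for binding introns beside alternative exons, where binding downstream of an exon tends to favour its inclusion and binding upstream its skipping. Short genes have little intron sequence, and many are housekeeping genes with abundant mRNA, so in eCLIP they can give many peaks from background RNA as well as from bound sites. For that reason each called peak was read by its fold over input, and a peak was called enriched when its log2 fold and its −log10 p were both at least 3.

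The labelled cell line was set against marker genes. VIM, NEFL, NEFM, HSPA8, TUBA1B, ACTB and GAPDH each had 3 to 31 called peaks in every list, KRT8 and KRT18 had 0 or 1, and the 9 markers of other cell types, from haemoglobin genes to GFAP and ALB, had 0 in every list. The folds move in steps. Replicates 2 and 3 have such a step just above a log2 fold of 1 where replicates 1 and 4 have it just below, so shares cut at 1 differ between these pairs of lists. Read counts per peak were not used here, so the depth is not known and folds are given without counting intervals.

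Sequence was at hand only for promoter windows, which run from 250 bases before to 50 bases after a start listed for a RefSeq gene. In 3 short genes, CORO6, OGFR and SLC75A1, at least 40 bases of an enriched region lay in such a window. The window need not be at the start of the gene span. The CORO6 region lies 4501 to 4765 nt from the start of its 8151 nt span. The OGFR stretch was read from a window of another gene, OGFR-AS1. The longest stretch of OGFR and CORO6 and a whole region of SLC75A1 are shown. Stretches of 47 bases in OGFR and of 91 and 51 bases in SLC75A1 could also be read. They held no GCATG and are not shown. The sequences shown are given 5′ to 3′ on the strand of the peak from the RefSeq GRCh38.p14 windows, with the motif core GCATG (T for U) in capitals.
CORO6, chr17:29618147-29618364, minus strand: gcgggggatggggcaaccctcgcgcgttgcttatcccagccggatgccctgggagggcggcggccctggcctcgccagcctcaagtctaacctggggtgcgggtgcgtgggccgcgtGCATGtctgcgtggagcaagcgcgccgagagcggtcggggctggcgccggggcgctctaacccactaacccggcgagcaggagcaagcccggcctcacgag
OGFR, chr20:62805694-62805837, plus strand: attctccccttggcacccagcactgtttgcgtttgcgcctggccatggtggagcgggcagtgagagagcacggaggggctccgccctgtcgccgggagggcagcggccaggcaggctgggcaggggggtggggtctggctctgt
SLC75A1, chr4:2934156-2934245, minus strand: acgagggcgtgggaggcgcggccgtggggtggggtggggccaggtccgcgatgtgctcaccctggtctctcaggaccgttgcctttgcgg

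The CORO6 stretch, 218 bases of a region enriched in all 4 replicates, held 1 GCATG, which starts at base 118 and is part of a TGCATG. The OGFR stretch, from a region enriched in 2 replicates, and the SLC75A1 stretch, from a region enriched in 1, held none. All 3 were rich in G and C, at 72.9%, 70.1% and 72.2%, against a median of 60.7% over the windows of short genes. GCATG on the strand of the gene was present in 19.6% of all 34943 promoter windows and in 18.8% of the 4443 windows of short genes. On either strand it was present in 29.5% of all windows, and TGCATG on the strand of the gene in 5.24%. A larger set of regions, called in all 4 replicates and lying wholly inside a window, could also be read. GCATG was in 2 of 12 such regions of short genes that were higher in IP by the limma fit given further on, in 3 of 48 without a call and in 0 of 2 that were lower. Over all genes the same counts were 15 of 60, 41 of 377 and 0 of 6. The median lengths of these regions were 103, 94.5 and 85.5 nt in short genes and 108, 92 and 85.5 nt over all genes. A window is 300 nt long, so the counts cannot be set beside the shares of windows, and the higher regions were also longer. These matches are a description of the letters in a small and GC-rich part of the regions.

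Enriched peaks made up a larger share of called peaks in short genes than in longer ones in each of the 4 replicates. In short genes 132, 128, 108 and 123 peaks were enriched in replicates 1 to 4, which is 1.47%, 1.36%, 1.14% and 1.31% of their called peaks. The share was highest in replicate 1 and lowest in replicate 3. In genes over 10 kb, chosen by the same rule and holding 872830 called peaks, it was 0.819%, 0.808%, 0.758% and 0.731%. The lowest share of short genes was above the highest share of longer genes, and over all called peaks of the series 0.818% were enriched. The mean difference was 0.540 ± 0.112 percentage points (SD, n = 4), from 1.32% ± 0.136 in short and 0.779% ± 0.0417 in longer genes. An exact two-sided sign-flip permutation over the 4 replicates gave p = 0.125, the smallest it can give, and 0.167 after Benjamini-Hochberg adjustment over the 4 measures compared in this way.

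Gene length did not order the shares evenly, as the plot of enriched share by gene length shows. The shortest spans, at most 2 kb, had 2 enriched peaks among 1014 called peaks of 132 genes, a mean share of 0.193% ± 0.223 (SD, n = 4). Genes of over 2 to 5 kb had the highest share of the 6 classes, 1.66% ± 0.0946, with 159 enriched peaks. Genes of over 5 to 10 kb had 330 enriched peaks and a share of 1.24% ± 0.165. The next 2 classes, over 10 to 30 kb and over 30 to 100 kb, were close to it at 1.18% ± 0.108 and 1.14% ± 0.0476, and genes over 100 kb lay apart at 0.431% ± 0.0302.

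**Figure D1:**
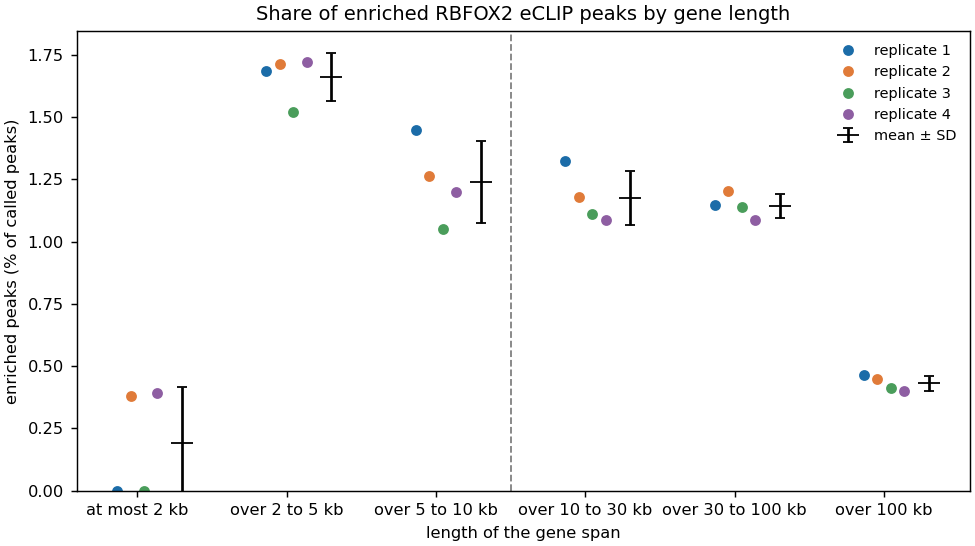
Percentage of called peaks that were enriched (log2 fold and −log10 p of at least 3) by the length of the gene span, on a linear axis. Points are the 4 replicates, the horizontal mark and bar are the mean ± SD, and the dashed line marks the 10 kb limit. The class over 2 to 5 kb is highest at 1.66% and the class over 100 kb has 0.431%, while the 3 classes between 5 and 100 kb lie between 1.14% and 1.24%.

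Against genes of over 10 to 100 kb alone, the share in short genes was 1.14 times as high (1.32% against 1.15%, higher in 4 of 4 replicates), where it was 1.69 times as high against all longer genes. When a log2 fold of 4 was asked for, without any limit on p, the shares were 0.378% and 0.363%, and short genes were higher in 1 of 4 replicates. Near the 10 kb limit itself, spans of 9 to 10 kb had a share of 1.5% ± 0.152 and spans of 10 to 11 kb 1.92% ± 0.291.

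A milder excess over input was also more common in short genes in each replicate. Peaks at or above a log2 fold of 1 were 24.1%, 34.6%, 30.5% and 21.8% of members in replicates 1 to 4, against 15.3%, 27.4%, 25.9% and 14.0% of peaks in longer genes. Replicates 2 and 3 were high in both groups of genes. The difference was 7.09 ± 1.80 percentage points, with short genes above in 4 of 4 replicates (two-sided exact sign-flip permutation, p = 0.125, adjusted 0.167). No limit was set on the −log10 p of these peaks. With one of at least 3, only 2.24% of members and 0.998% of peaks in longer genes passed. Without that limit, the mean share was 23.2% in spans of at most 2 kb, 25.9% over 10 to 30 kb and 17.9% over 100 kb. Against genes of over 10 to 100 kb alone it was 27.7% in short genes and 23.6%. Spans of 9 to 10 kb had 30.5% and spans of 10 to 11 kb 31.4%, so this excess did not stop at the 10 kb limit. Peaks with a log2 fold of −1 or lower made up 13.8% of members and 13.6% of peaks in longer genes. That difference of 0.187 ± 2.03 was positive in 2 of 4 replicates and smaller than its spread (exact p = 0.875, adjusted 0.875). It depended on the limit, which lies at a step of the folds (−1.0005 in replicate 4, −0.9986 in replicate 2). At a limit of −0.9, chosen after seeing the data, it was −1.82, negative in 4 of 4 replicates (exact sign-flip p = 0.125, the smallest possible). Median peak length was 51, 51, 49 and 48 nt in short genes and 1 nt less in longer genes in each replicate (exact p = 0.125, adjusted 0.167).

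Members were densely called but few genes held the enriched ones. Called peaks amounted to 0.821 per kb of span and list in short genes with a peak and 0.249 in longer genes. Enriched peaks amounted to 10.8 and 1.94 per 1000 kb of span. At the level of genes the order turned. An enriched peak in any list was found in 114 of 1984 short genes, or 5.75%, and in 813 of 9367 longer genes, or 8.68%, which also had more called peaks each (median 55 against 15 over the 4 lists). Of the 114 genes, 44 had enriched peaks in 1 list, 26 in 2, 15 in 3 and 29 in all 4. Chromosomes 16, 17 and 19 held 41.1% of the enriched members and 29.3% of all members, and chromosome 19 alone held 99 of the 491. Without these 3 chromosomes the shares were 1.1% in short and 0.691% in longer genes.

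All enriched members whose gene has a strand in the promoter table lay on that strand, 113 of 113, 111 of 111, 89 of 89 and 103 of 103 in replicates 1 to 4. Of the other members 98.2% to 98.4% did. Enriched members were longer than members in general, with median lengths of 100, 103, 100.5 and 99 nt. The same held in longer genes, where enriched peaks had medians of 98, 96, 94 and 94 nt. The median log2 fold of enriched members was 3.73, 3.70, 3.64 and 3.91. It was below that of enriched peaks of longer genes in every replicate (4.00, 3.91, 3.91 and 4.00). The highest −log10 p of an enriched member was 34.6, where the lists allow up to 400.

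In each replicate, enriched members recurred in other replicates less often than enriched peaks of longer genes. A member enriched in replicates 1 to 4 overlapped an enriched peak of another replicate by at least 1 nt in 51.8%, 47.7%, 52.2% and 51.8% of cases, as the mean over the other 3 lists. For longer genes these values were 64.3%, 62.1%, 63.4% and 67.1%. The groups of values did not overlap, and the difference was −13.4 ± 1.84 percentage points, negative in 4 of 4 replicates (two-sided exact sign-flip permutation, p = 0.125). With every called peak of the other list allowed as partner, the difference was 0.155. With only spans of at most 5 kb called short it was −2.09 (two-sided exact p = 0.5). With a log2 fold limit of 4 and no limit on p it was −23.1.

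Merged by overlap, the enriched peaks of short genes formed 222 regions. Of these 118 were enriched in 1 replicate, 58 in 2, 20 in 3 and 26 in all 4, so 11.7% reached all 4 replicates, against 16.4% of the 3371 regions of the series and 17.5% of the 2443 in longer genes. In 50 of the 114 genes (43.9%) there was more than 1 region, up to 11, against 49.6% of 812 longer genes, with up to 49. Of 108 gaps between neighbouring regions of a short gene 63.9% were under 200 nt, with a median gap of 90 nt, against 58.7% and 127 nt in longer genes. These differences were not tested.

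The 26 regions found in all 4 replicates belonged to 21 genes, and their mean log2 folds ran from 3.37 to 5.61, with SDs between replicates of 0.13 to 1.00. They were 100 to 634 nt long, with a median of 255.5 nt. The overlapping regions of the limma fit over all regions had adjusted p between 0.00408 and 0.00802. Much the same folds had selected the 26, so this is a description and not a test. The fold given for such a region in a replicate is the highest among its enriched peaks there, and its −log10 p is likewise the highest and can come from another peak. The limma fit instead merged all called peaks, so its regions can be wider, and took the fold of the peak that ranks first by −log10 p. This gave 4.36 in place of 4.79 for EIF3G, 3.87 in place of 4.16 for FBXO44 and 3.22 in place of 3.48 for NICN1. For SLC26A6 at chr3:48627304-48627497 it gave 4.38 in place of 4.06, which includes peaks outside those positions. Positions below are on GRCh38, 1-based, and say only which gene span holds the region, since exons and introns were not annotated here.

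The region with the highest fold was in SLC26A6, a gene for an anion exchanger of the plasma membrane, on the minus strand at chr3:48627034-48627285. In replicates 1 to 4 this region had log2 folds of 6.54, 5.38, 5.30 and 5.21, a mean of 5.61 ± 0.62 (SD, n = 4). Replicate 1 stood above the other 3, which lay close together. A neighbouring region of the same gene at chr3:48627304-48627497 had 3.32, 4.09, 4.36 and 4.49, with replicate 1 the lowest.

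Next in rank by their lowest fold were NUDT16L1 and EIF3G. NUDT16L1, whose product binds the DNA repair factor 53BP1, has a span of 2298 nt on chromosome 16 and held adjoining regions at chr16:4694337-4694633 and chr16:4694634-4694863. The second had log2 folds of 4.70, 5.09, 4.52 and 4.81, and the first 5.04, 5.00, 4.86 and 4.52, so both were even across replicates (4.78 ± 0.24 and 4.86 ± 0.24). EIF3G encodes a subunit of the translation initiation factor eIF3, and its region at chr19:10116173-10116806 on the minus strand was the longest of the 26. Its fold was 5.58, 4.38, 4.38 and 4.81, highest in replicate 1. In EIF3G 18 of the 26 called peaks over the 4 lists were enriched.

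NR1H2, the gene of the oxysterol receptor LXR-beta, had 5.13, 4.76, 4.17 and 5.39 at chr19:50377073-50377534, 616 to 1077 nt from the start of its span. CXXC1, whose product binds unmethylated CpG and serves the SETD1 histone methyltransferases, had 4.36, 3.52, 4.46 and 3.64 at chr18:50285342-50285767, low in replicates 2 and 4. NPRL2, a subunit of the GATOR1 complex that restrains mTORC1, had 3.94, 4.65, 4.27 and 4.58 at chr3:50349116-50349374, with no replicate far from the rest. CALM3 is 1 of several genes for calmodulin, the calcium sensor. Its region at chr19:46606265-46606424 had 5.61, 5.88, 3.72 and 5.46, so replicate 3 lay well below the other 3 and the SD was 0.98.

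CFD encodes complement factor D, a serine protease of the alternative pathway, and had 4.81, 3.91, 4.64 and 4.39 at chr19:862650-862770. PIGO, an enzyme of the synthesis of GPI membrane anchors, had 4.39, 3.37, 3.91 and 4.52 at chr9:35092249-35092568. Its second region, at chr9:35091814-35091988, had 3.27, 3.25, 3.50 and 3.46, the smallest spread of the 26. In PIGO, as in SLC26A6, 19 of 30 called peaks over the 4 lists were enriched, so in these genes enriched peaks outnumbered the rest.

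NUDT14, a hydrolase of UDP-glucose, had 4.09, 3.59, 4.70 and 3.58 at chr14:105173867-105174128, highest in replicate 3. FBXO44, an F-box protein of an SCF ubiquitin ligase, had regions with means of 4.16 ± 0.46 and 3.56 ± 0.43 at chr1:11661337-11661638 and chr1:11661854-11662060. TSPYL4 had 4.58, 4.09, 3.76 and 4.58 at chr6:116252375-116252735. In all these genes every replicate passed a log2 fold of 3 by the rule that chose them, and which replicate was highest differed from gene to gene.

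Of the list of cytoskeleton genes, ACTB, ACTG1 and MYL6 held a region in all 4 replicates. ACTB, the gene of beta-actin, had 3.91, 4.36, 3.25 and 3.27 at chr7:5529808-5529907 and 3.03, 3.74, 3.64 and 3.17 at chr7:5530158-5530319. ACTG1, the gene of gamma-actin, had 3.27, 3.66, 4.30 and 4.37 at chr17:81511618-81511731, higher in replicates 3 and 4, where the first ACTB region was lower. ACTB and ACTG1 share much of their coding sequence and have many processed copies, and how reads with several matches were placed is not given in the sources used here. MYL6, a myosin light chain, had 4.64, 3.17, 3.09 and 4.09 at chr12:56161007-56161247. CORO6, of the actin-binding coronins and not in that list, had 5.09, 4.65, 3.21 and 3.70 at chr17:29618147-29618411, which takes in the sequence with TGCATG shown above.

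SRSF6, which encodes an SR protein that regulates splicing, had the highest −log10 p of the 26 regions in replicates 1 to 3, with 34.6, 30.3, 30.7 and 21.7 at chr20:43458511-43458785. Its log2 fold there was 3.79, 3.92, 4.32 and 3.11. A second SRSF6 region at chr20:43459032-43459180 was enriched in 3 replicates (4.23, 3.84, 2.76 and 4.70). The other genes with a region in all 4 replicates, chosen by no rule beyond that, were NICN1 (mean 3.48), WDR77 (3.59), TEDC2 (3.72) and OGFR (4.02). The plot of all 26 regions shows their values by replicate.

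A further 20 regions were enriched in 3 replicates, and in some of them the missing replicate was close to the limit. The region of SLC39A13, a zinc transporter gene, at chr11:47414006-47414139 had log2 folds of 3.0 in replicates 1, 2 and 3 and 4.32 in replicate 4, but in replicate 1 the value was 2.999, a step of the values that falls just above 3 in replicates 2 and 3. MPG, a DNA repair glycosylase gene, had 4.70, 4.59, 3.17 and 4.17 at chr16:81825-81982, and there every replicate passed the fold limit but replicate 3 had a −log10 p of 1.93. With the limit set at 2.9, below that step, 27 regions of short genes were enriched in all 4 replicates.

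In other genes the missing replicate was far from the limit. PFN2, the gene of the actin-binding protein profilin-2, had 3.36, 4.32, 2.17 and 3.11 at chr3:149965823-149966054, lowest in replicate 3. AMH, the gene of anti-Müllerian hormone, had 3.32, 3.32, 1.65 and 4.36 at chr19:2249668-2249766, again lowest in replicate 3. NAGLU, a lysosomal enzyme gene, had a region with 3.64, 1.85, 3.0 and 3.25 at chr17:42539427-42539579, where replicate 2 was lowest. In each of these genes the fold was above 0 in all 4 replicates.

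**Figure D2:**
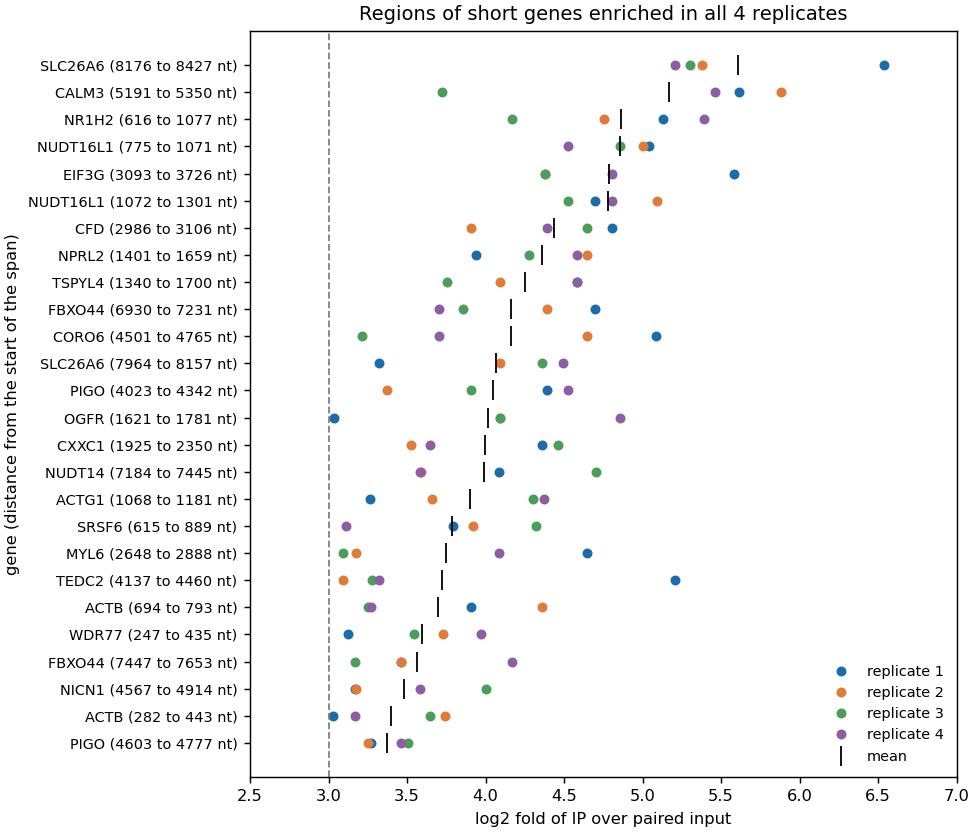
Log2 fold of IP over paired input in each replicate (points) for the 26 regions of short genes enriched in all 4 replicates, with the mean as a bar. Each row is a region, named by gene and distance from the start of its span, and the dashed line is the limit of 3. SLC26A6 in replicate 1 is the highest point at 6.54, and CALM3 and TEDC2 show spreads near 1.

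Regions were then read whether or not they passed that limit. Among the regions in which each of the 4 lists had a called peak, 2726 lay in short genes, and the mean of the 4 log2 folds was tested against 0 with limma, fitted over all 49493 such regions. At a Benjamini-Hochberg adjusted p of 0.05, 688 regions of 315 short genes were higher in IP and 42 regions of 36 genes were lower, with 3 genes holding both. That is 25.2% higher and 1.54% lower, beside 21.1% and 1.81% of all 49493 regions, and 21.4% and 1.17% of the 36424 in longer genes. The median of the mean log2 fold was 0.58 in short genes and 0.50 over all regions. No called peak with a log2 fold under 0 had a −log10 p over 0. Where a region held several peaks of a list, taking the first by −log10 p therefore leaned to higher folds. The numbers of higher and lower calls, and these medians, are thus not free of a lean towards IP. A called mean of at least 3 was rarer in short genes (76 regions, 2.79%) than in longer genes (3.28%). These shares lie near the background, and the difference between them was not tested. With limma on 3 replicates far fewer regions were called over the whole series. Without replicate 1 or without replicate 4, 0 regions passed in short genes (922 and 946 were higher at an unadjusted p under 0.05) and 0 of 64176 and 0 of 63168 in the whole series (0%). Without replicate 2, 70 regions of short genes were higher (2.18%), beside 2.04% of all regions, and without replicate 3, 158 (4.85%), beside 3.93%.

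Genes differed in whether all or only some of their tested regions were higher in IP. Of 162 short genes with at least 5 tested regions, all regions were higher in IP in 8, some in 97 and none in 57. ABHD17A, which encodes an enzyme that removes palmitate from proteins, was the most extensive, with 22 of 22 regions higher between 174 and 8403 nt of its 8687 nt span. Their mean log2 folds were 1.36 to 3.1, so most of them stayed under the limit for an enriched peak, which 3, 6, 0 and 7 of its 34, 30, 37 and 37 called peaks passed in replicates 1 to 4. NAT8L, the gene of the enzyme that makes N-acetylaspartate, had 14 of 14 regions higher, at 1.60 to 3.11. They lay between 5026 and 9368 nt of its 9763 nt span. The other 6 were AMH (6 regions), C20orf204, CFD, CLDN15, DUS3L and OGFR (5 each). In some of them the tested regions took up only a part of the span. They lay at 976 to 2668 nt of 9166 nt in OGFR and at 2900 to 3735 nt of 3978 nt in CFD. In C20orf204 they lay at 2660 to 3576 nt of 5293 nt, whereas in DUS3L they ran from 190 to 5286 nt of 6024 nt.

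In ACTB most tested regions were not higher. Of its 14 tested regions, 4 were higher, all between 209 and 744 nt from the start of its 3454 nt span, with means of 3.21 to 3.71. The other 10 ran from −1.22 to 0.10, and the one at −1.22 was called lower. In ACTG1 1 of 5 regions was higher (3.90, at 1246 nt), and the other 4 ran from −0.75 to −0.04. SRSF6 had its 3 higher regions at 749, 1019 and 1210 nt (3.71, 3.09 and 3.88), while its other 5 lay at 2176 to 5469 nt with means of −1.70 to 0.49. EIF5A, a translation factor gene with the near-identical copy EIF5AL1, had 3 higher regions at 1198 to 2086 nt (1.64 to 3.08) and 2 lower ones elsewhere.

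In CALM3 and MYL6 most but not all tested regions were higher. In CALM3 7 of 10 regions were higher, with 5.17 at 5252 nt and 1.19 to 2.82 for the other 6, which lay at 8287 to 9542 nt. In MYL6 6 of 11 regions were higher, all at 1717 to 2751 nt, while the region at 25 nt had log2 folds of −1.0, −2.0, 2.59 and 0.41 and changed sign between replicates. The plot of called peaks along genes shows PIGO, SLC26A6, SRSF6, EIF3G, FBXO44 and ABHD17A, and NAT8L, not drawn, had as many enriched peaks as ABHD17A (16). In PIGO all 30 called peaks had their midpoints between 4081 and 5228 nt of the 7904 nt span, and in FBXO44 all 33 lay between 6957 and 8144 nt of 8921 nt. These 30 and 33 were all the called peaks with a midpoint in the 2 spans, whether or not another gene overlapped.

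**Figure D3:**
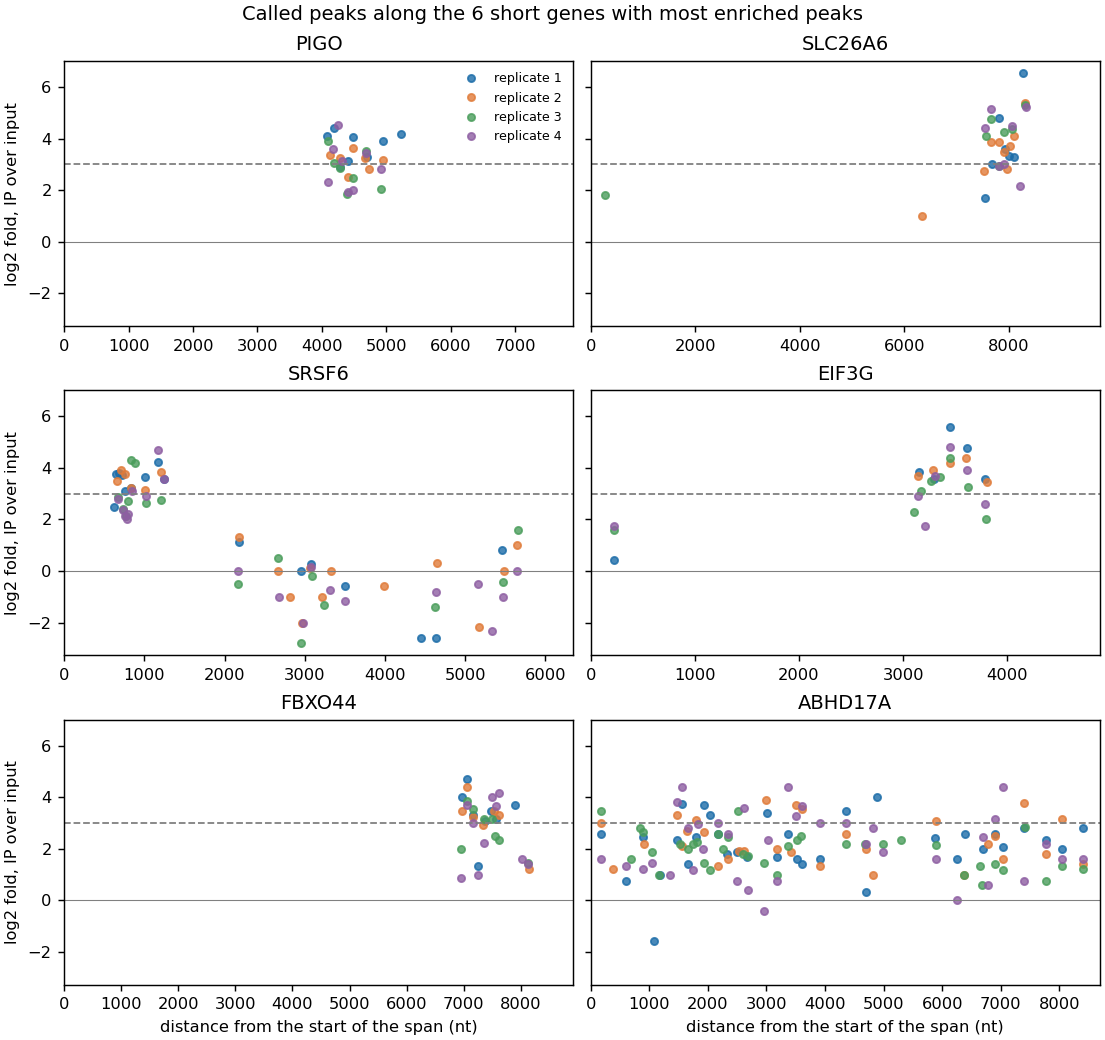
Log2 fold of every called peak against its distance from the start of the gene span in nt, for 6 short genes with most enriched peaks, coloured by replicate. The dashed line is the limit of 3 and the thin line is 0. Peaks of SRSF6 above 3 sit near the start of the span, among others below 3 but well above 0. Its peaks further along the span run from −2.81 to 1.59 and lie mostly near or below 0. The peaks of ABHD17A spread over the gene mostly below 3.

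Having many called peaks was a different property from being enriched. The 5 short genes with most called peaks over the 4 lists were DDX5 (142), ABHD17A (138), ERF (109), INO80E (105) and ACTB (101). In DDX5, an RNA helicase gene, 1 peak was enriched and 0 of 17 tested regions were higher, with a median of 0.12. In ERF, the gene of an ETS-family repressor, 2 peaks were enriched and 11 of 15 regions were higher, with a median of 1.99. In INO80E, a subunit of a chromatin remodeller, no peak was enriched and 7 of 18 regions were higher, with a median of 1.21.

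The regions lower in IP with the lowest means were in EIF5AL1, TOMM22, MDK, RBM8A and SRSF2. EIF5AL1 had −2.26, −3.17, −3.58 and −2.59 (mean −2.90 ± 0.59, limma adjusted p = 0.00637) at chr10:79513423-79513488. Whether reads placed there came from the near-identical EIF5A was not tested. TOMM22, a receptor of the mitochondrial outer membrane import machinery, had −2.32, −2.32, −3.00 and −1.0 (limma adjusted p = 0.0190), weakest in replicate 4. MDK, the gene of the growth factor midkine, had −3.32, −1.0, −2.32 and −1.26 (0.0373).

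A further pair of these genes act on mRNA. RBM8A, of the exon junction complex, had −1.0, −2.0, −2.58 and −2.0 (limma adjusted p = 0.0181), and SRSF2, an SR protein gene, had −0.59, −1.85, −2.26 and −2.66 (0.0323). All 5 were negative in every replicate. The folds were also tested with limma against a log2 fold of 1 in place of 0. In short genes 172 regions were then higher (6.31%) and 1 was lower (0.0367%). Over all 49493 regions the shares were 5.6% and 0.188%. The higher share thus lies near the background, while the lower share is below it and rests on 1 region.

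Gene lists of common short-gene functions were counted in the same fit, where 315 of 1011 tested short genes had a higher region and 36 a lower one. Cytoskeleton genes had a higher region in 6 of 17 tested genes and a lower one in 3, with a median log2 fold over regions of −0.09, against 0.58 for all short genes. ACTB, ACTG1 and MYL6 carried its regions in all 4 replicates. Among translation factor genes, 3 of 9 had a higher and 3 a lower region (median −0.31), and EIF3G stood beside EEF2, the elongation factor gene with most peaks, where 0 of 10 regions were higher. Among splicing factor and snRNP protein genes, 3 of 15 had a higher and 2 a lower region (median −0.05). SRSF6 was the one with regions in all 4 replicates, and HNRNPA1, with most called peaks, had 2 higher and 1 lower of 11.

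Genes of the respiratory chain had a higher region in 4 of 25 tested genes and a lower one in 4 (median 0.07). NDUFS8, a subunit of complex I, stood apart within it, with 6 of 7 regions higher and 3.91, 3.65, 2.00 and 4.25 at chr11:68031791-68031898, low in replicate 3. NDUFV1, of the same complex and with more called peaks, had 2 of 10 higher. Chromatin protein genes had a higher region in 6 of 10 tested genes and a lower one in 1 (median 0.07), with 1 of 6 regions higher in PTMA, its gene with most called peaks. Chaperone genes had 2 of 7 and 1 (0.21), among them HSP90AB1 with 2 of 10 regions higher.

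Immediate early and stress response genes had a higher region in 4 of 12 tested genes and none lower (median 0.10), and ATF4, with most called peaks, had 0 of 9. Transcription factor genes of development, where 69 of 75 listed genes are short, had 4 of 22 and none lower (0.41), and HOXB9 had 0 of 12. Proteasome and ubiquitin genes had 1 of 15 higher and 1 lower (−0.01), with 0 of 5 regions higher in PSMD2. Glycolysis genes had 1 of 5 and 1 (−0.40), and GAPDH had 0 higher and 1 lower of 8. The gene with a higher region was ENO2, of neuronal enolase, with 2 of 2 regions higher, at up to 3.09, and it was chosen after its values were seen. The median of every list was below that of all short genes, and this was not tested.

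**Figure D4:**
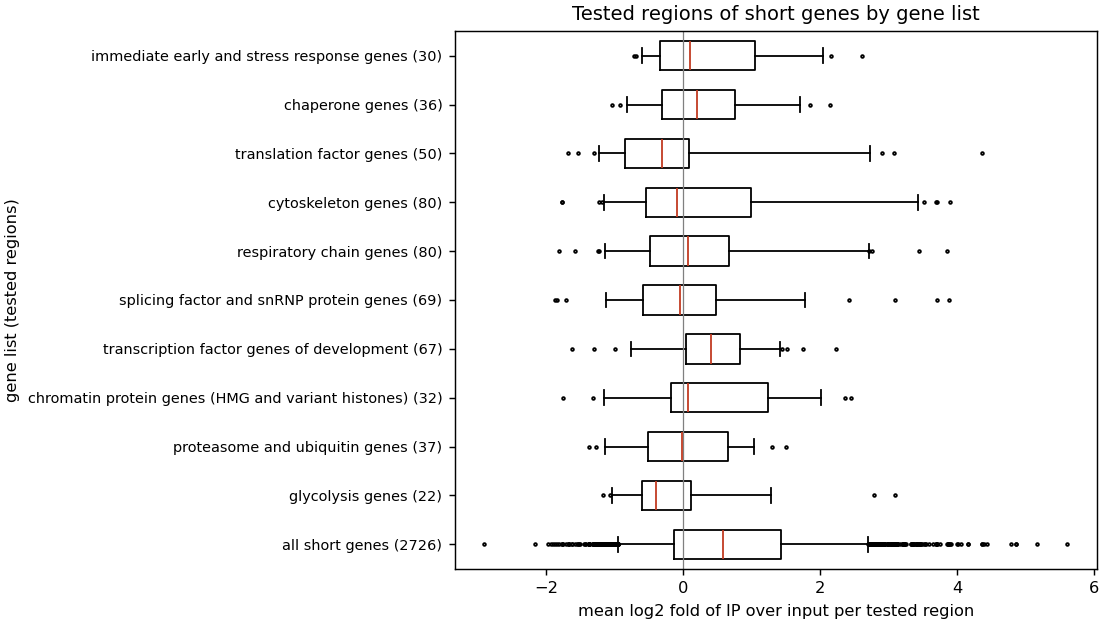
Mean log2 fold of IP over input for each tested region of short genes, by gene list, with the number of tested regions in parentheses. Boxes span the quartiles with the median as a red line, whiskers reach the 5th and 95th percentiles and points lie beyond them. The medians of the lists lie between −0.40 and 0.41, left of the 0.58 of all short genes, and 7 cytoskeleton, 3 splicing factor, 2 translation factor, 2 respiratory chain and 1 glycolysis region lie above 3.

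Along the gene, enriched members were spread over the whole span. Read in steps of 20% from the start of the span, 21.9%, 16.2%, 24.6%, 17.1% and 20.3% of enriched members fell in each step, against 25.2%, 17.7%, 17.3%, 18.5% and 21.3% of the other members. In the first step the share of enriched members was 28.0%, 22.7%, 15.7% and 21.1% in replicates 1 to 4, and that of other members 24.7% to 25.6%. Replicate 1 was above the other members there and the rest were below. The difference was −3.35 ± 4.73 percentage points, smaller than its spread (exact sign-flip permutation, two-sided p = 0.375, adjusted 0.375 over both ends). In the last step it was −1.01 ± 1.56 (exact p = 0.25, adjusted 0.375). Other settings moved both values. The first-step difference was −10.3 with spans of up to 20 kb called short and −6.88 at a log2 fold limit of 1. It was −7.03 at a log2 fold limit of 4 with no limit on p. Each of these was negative in 4 of 4 replicates (exact p = 0.125, the smallest possible). At a −log10 p of at least 5 the first-step difference was 1.13. The last-step difference was −5.95 at that limit on p (exact p = 0.125). The middle step, which was not tested, held 21.2%, 22.7%, 26.9% and 27.6% of enriched members and 16.9% to 17.5% of the others.

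**Figure D5:**
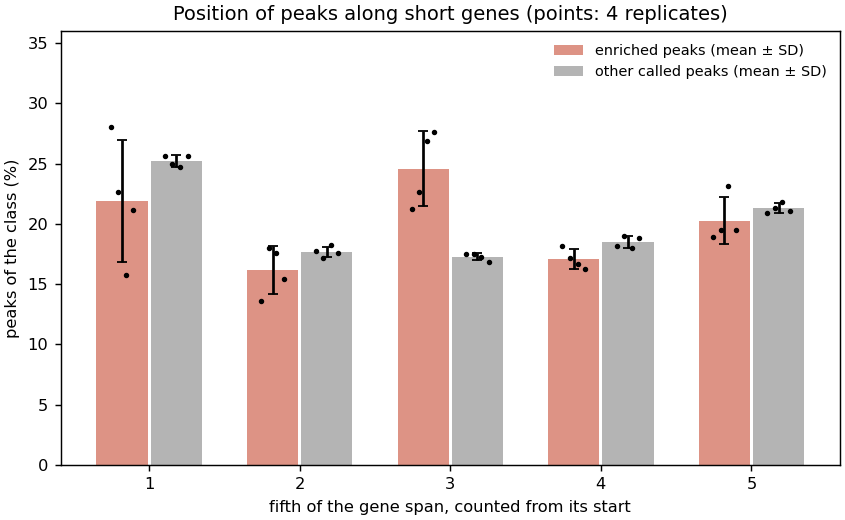
Percentage of enriched members and of other called members in each 20% step of the gene span, counted from its start (bars are means, error bars SD, points the 4 replicates). The bars of enriched members are uneven, between 16.2% and 24.6%, and their replicates spread most in the first step, from 15.7% to 28.0%.

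In the limma calls, the 688 higher regions were spread evenly over the 5 steps, at 19.3% to 20.6% each. Regions with no call were most frequent in the first step (30.2%) and next in the last (22.1%). Of the 42 lower regions, 38.1% lay in the last step and 2.38% in the middle one. These shares come from regions that share genes, so they are given as a description.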

How the data were processed

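The authors deposited 1 peak list per IP library, compared with its own input, with columns of −log10 p and log2 fold. No header names them, and the values gave the units. Per the submitters' processing notes, UMI-tools 1.1.1, cutadapt 3.2 and STAR 2.7.7a were used with builds named hg38 and GRCh38.p13. The peak caller, the p-value test and the scaling between IP and input are not given in the sources used here.

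Midpoints were matched to RefSeq GRCh38.p14 gene spans, which carry no strand. Strand came from the promoter table for 3830 of 5144 short genes and from the peak otherwise. Enriched peaks had a log2 fold and −log10 p of at least 3. Shares were compared over 4 replicates by two-sided exact sign-flip permutation (smallest p 0.125). For regions called in all 4 replicates, each replicate gave the fold of its peak ranked first by −log10 p, which leans to higher folds. These were tested with limma 3.58.1 in R 4.3.3 (intercept-only, Benjamini-Hochberg over all 49493 regions). Scripts ran in Python 3.11.15 with pandas 2.3.3 and numpy 2.4.6 and were tested on simulated data.

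The members, the gene lists and the rules were chosen with earlier results of these data known. Named genes were the first 15 by lowest fold of a region enriched in all 4 replicates, the 5 with the lowest means among lower regions, the 5 with most called peaks, list members with a region enriched in at least 3 replicates, and the gene of each list with most called peaks. Other named genes were chosen after their values were seen.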

Additional observations from a re-analysis of the deposited data

Results flagged for a closer look

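In 3 sets of 4 replicate values, 1 replicate stood far from the other 3 by Dixon's criterion, out of 26 regions and 15 sets of shares looked at. Chance alone gives about 1 in 20 such sets. The share of enriched members that recurred in another list was 47.7% in replicate 2, below the other 3. The log2 fold of the SLC26A6 region at chr3:48627034-48627285 was 6.54 in replicate 1, and that of the TEDC2 region at chr16:2464246-2464569 was 5.21 in replicate 1, both above the other 3 replicates.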

How the results depend on the processing

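The enriched share stayed higher, as a mean over replicates, in short than in longer genes under all alternatives run, at 0.0156 to 1.24 percentage points, and at 0.504 to 0.592 with 1 replicate left out. The excess of peaks with a log2 fold of at least 1 (4.16 to 9.10, and 6.53 to 7.93) and the difference in peak length kept their sign too. The smallest sign-flip p with 3 replicates is 0.25. The difference in peaks with a log2 fold of −1 or lower was 0.187. At a limit of −0.9 it was −1.82, negative in 4 of 4 replicates (exact permutation p = 0.125). It was −0.646 against genes of 10 to 100 kb and −0.609 to 0.920 with 1 replicate left out. It was −0.0930 without replicate 2 and −0.609 without replicate 3. The difference in recurrence was −13.4 and turned to 0.155 with any called peak as partner. It was −2.09 (exact permutation p = 0.5) with spans of at most 5 kb called short. At a log2 fold limit of 4 with p unlimited it was −23.1, and with 1 replicate left out −15.8 to −12.0. The 26 regions in all 4 replicates became 16 at a −log10 p of at least 5, 54 at a log2 fold limit of 1, 5 at a log2 fold limit of 4 with p unlimited, 202 with any called peak in the other replicates, and 29 to 33 over 3 replicates. The difference in the first 20% of the span, −3.35, turned to 1.13 at a −log10 p of at least 5 and reached −10.3 with spans of up to 20 kb. That in the last 20% turned to 0.0142 at a log2 fold limit of 1 and to 2.67 at a limit of 4 with p unlimited. It was −5.95 at a −log10 p of at least 5. Of the limma calls, 688 higher and 42 lower, 172 and 1 passed against a log2 fold of 1, and 0 to 158 and 0 to 5 with 1 replicate left out, when calls fell over the whole series. Of 20 named regions, all 20 lost their call without replicate 1 or 4 (adjusted p 0.0507 to 0.0565 and 0.0506 to 0.0550) and 5 without replicate 2. The cause was not tested.

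The limits of 0.9 and 2.9, the comparator of 10 to 100 kb, the set without chromosomes 16, 17 and 19 and the limit on the fold alone were chosen after seeing the data. The planned test of GCATG in enriched peaks and its alternatives were not run, since no genome sequence was given. No paired analysis was possible beyond the tests reported, because every value is already a ratio of an IP to its own input and the differences are taken within a replicate, so no further block could be added. Depth is unknown, and folds near the limit move in steps.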
